A study of Homo sapiens with 4 samples.

Results

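The genes described here form the HLA class I antigen presentation pathway. They comprise the heavy chain genes HLA-B, HLA-C, HLA-E and HLA-F, the light chain gene B2M, the peptide transporter genes TAP1 and TAP2, the loading factor gene TAPBP and the regulator gene NLRC5. They were chosen by name, and each of the 9 names matched a single row among the 60612 genes of the deposited tables. The matching used names alone, though the list of names was drawn up with earlier results of these data known.

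Almost every nucleated cell carries class I molecules, in which a heavy chain pairs with beta-2-microglobulin, the product of B2M, around a short peptide. The proteasome cuts the peptides in the cytosol, the TAP1 and TAP2 heterodimer pumps them into the endoplasmic reticulum, and tapasin, the product of TAPBP, bridges the transporter to empty class I molecules and helps select what binds. HLA-B and HLA-C are classical, highly variable chains read by T cells and natural killer cells, while HLA-E and HLA-F vary little. Interferons raise the transcription of most of these genes, in part through NLRC5, and tumours, colorectal cancers among them, can lose the pathway by mutation or silencing.

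Messenger RNA was sequenced from 4 groups of cells with 1 library each. RKO cells with AVEN overexpression (RKO OE) were compared with RKO cells of wildtype AVEN (RKO WT), and HCT116 cells with AVEN overexpression (HCT116 OE) were compared with HCT116 cells of wildtype AVEN (HCT116 WT). Both are established human colorectal cancer lines, and AVEN encodes an inhibitor of apoptosis. The labels used here give no vector, promoter, clone or selection for the overexpression, and AVEN mRNA itself measured 4.43 FPKM in RKO OE, 1.34 in RKO WT, 2.96 in HCT116 OE and 1.53 in HCT116 WT.

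Levels are the deposited FPKM values, which are fragments scaled to transcript length and library size. The files hold no counts. Depth was therefore read off genes with a single exon, on which 1 FPKM over 1 kilobase corresponded to about 19.8, 20.7, 20.9 and 18.8 fragments in RKO OE, RKO WT, HCT116 OE and HCT116 WT. The fragments of each gene were estimated at that depth from its FPKM and the mean length of its listed transcripts. That mean was 837 bases for HLA-B, whose transcripts run from 147 to 1547 bases. The number is too low where longer transcripts carry the signal and too high where shorter ones do. Intervals given below are exact 95% intervals for such estimated fragments, so their widths are approximate. They cover counting error only and say nothing of variation between cultures, since each group has a single library. No p-value is therefore given for a difference within a line.

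Of the 7 epithelial and colorectal markers, 4 reached 1 FPKM in RKO OE and in RKO WT, and 6 did in HCT116 OE and in HCT116 WT. KRT19 and CDH1, keratin and cadherin genes of epithelia, stood at or below 0.0659 FPKM in both RKO libraries, against 380 to 381 FPKM of KRT19 in the HCT116 libraries. CDH1 differed within HCT116, at 17.5 FPKM in OE and 8.25 FPKM in WT. Within RKO, KRT18 and KRT8, further epithelial keratin genes, were higher in OE, at 71.8 and 7.01 FPKM in OE against 37.4 and 5.09 FPKM in WT. EPCAM, an epithelial adhesion gene, was lower, at 2.02 FPKM in RKO OE against 3.08 in RKO WT. The part of these markers in the results was not tested. The 7 leukocyte markers, whose cells carry abundant class I, stayed at or below 0.112 FPKM in all 4 libraries, with CD3E and MS4A1 listed at the lowest value of the files throughout. Of 6 fibroblast and endothelial markers, COL1A1 alone reached 1 FPKM, at 2.60 and 2.59 FPKM in HCT116 OE and HCT116 WT. In bulk RNA, fewer cells making a transcript cannot be told apart from less transcript per cell.

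The promoters of 4 of these genes are shown so that their control elements can be compared, and because HLA-B and HLA-C, alike in sequence, differed in their values in RKO. RefSeq windows on GRCh38.p14, from 250 bases before to 50 after a start site, were available for 7 of the 9 genes. HLA-E and NLRC5 had no window, so their control elements were not examined. Capitals mark exact matches, on either strand, to the X2 core (TGACG), the Y box (ATTGG), the interferon-stimulated response element core (GAAA, any 2 bases, GAAA) and enhancer A, which is the first run in capitals of the HLA-B window. Runs that join up are overlapping matches. The windows lie at chr6:31357130-31357429 (HLA-B, minus strand), chr6:31272043-31272342 (HLA-C, minus strand), chr6:29723184-29723483 (HLA-F, plus strand) and chr15:44711267-44711566 (B2M, plus strand). They are the reference sequence, not that of the cell lines.
HLA-B: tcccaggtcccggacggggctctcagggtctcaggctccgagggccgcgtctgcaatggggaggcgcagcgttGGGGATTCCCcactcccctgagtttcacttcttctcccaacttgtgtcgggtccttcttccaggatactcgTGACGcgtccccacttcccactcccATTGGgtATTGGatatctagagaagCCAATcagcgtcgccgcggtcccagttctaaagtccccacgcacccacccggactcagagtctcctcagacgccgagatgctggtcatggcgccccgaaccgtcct
HLA-C: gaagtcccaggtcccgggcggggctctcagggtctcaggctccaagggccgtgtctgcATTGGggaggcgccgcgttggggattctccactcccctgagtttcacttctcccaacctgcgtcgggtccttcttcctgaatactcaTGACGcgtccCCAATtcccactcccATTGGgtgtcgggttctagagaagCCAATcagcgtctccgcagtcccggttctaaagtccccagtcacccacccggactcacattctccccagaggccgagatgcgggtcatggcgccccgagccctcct
HLA-F: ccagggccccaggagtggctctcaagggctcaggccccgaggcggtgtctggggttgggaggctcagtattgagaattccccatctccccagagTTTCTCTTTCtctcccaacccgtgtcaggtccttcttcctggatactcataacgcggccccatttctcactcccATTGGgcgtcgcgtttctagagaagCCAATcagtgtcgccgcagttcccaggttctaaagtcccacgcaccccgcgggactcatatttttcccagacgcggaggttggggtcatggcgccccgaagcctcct
B2M: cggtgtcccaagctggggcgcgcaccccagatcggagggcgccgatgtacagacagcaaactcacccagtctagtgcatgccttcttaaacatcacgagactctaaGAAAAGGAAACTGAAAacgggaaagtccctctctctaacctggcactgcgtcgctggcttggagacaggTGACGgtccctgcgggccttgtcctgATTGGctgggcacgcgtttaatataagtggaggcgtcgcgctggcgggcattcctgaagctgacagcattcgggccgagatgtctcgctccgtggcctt

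The HLA-B and HLA-C windows were identical at 88.5% of aligned positions, and HLA-F matched HLA-B at 79.7% and HLA-C at 78.5%. An X2 core followed within 40 bases by a Y box, the arrangement bound by the complex that NLRC5 joins, was found in HLA-B, HLA-C and B2M, and in 1.09% of 35116 promoters of the table. Exact enhancer A, a binding site of NF-kappa-B, was found in HLA-B and in 0.0769% of promoters, while the HLA-C window differed from these letters. The interferon-stimulated response element core occurred in the windows of HLA-F, B2M, TAP2 and TAPBP and in 1 of the 2 windows of TAP1, against 3.57% of promoters. A Y box stood in 34.6% of promoters and an X2 core in 24.6%. Such matches describe the letters only and say nothing of binding in these cells.

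In GENCODE 29 on GRCh38, 7 of the genes lie in the major histocompatibility complex of chromosome 6. In order along the chromosome these are HLA-F (chr6:29722775-29738528, plus strand), HLA-E (chr6:30489467-30494205, plus strand), HLA-C (chr6:31268749-31272130, minus strand), HLA-B (chr6:31269491-31357188, minus strand), TAP2 (chr6:32821833-32838780, minus strand), TAP1 (chr6:32845209-32853978, minus strand) and TAPBP (chr6:33299694-33314387, minus strand). B2M lies apart at chr15:44711487-44718877 and NLRC5 at chr16:56989485-57083531, both on the plus strand. Reads of similar genes can be split between rows by the aligner, so values of the heavy chain genes carry that uncertainty. Of the 50-base stretches in their annotated transcripts, 2.72% (HLA-B), 5.38% (HLA-C), 4.34% (HLA-E) and 0.977% (HLA-F) also occurred in transcripts of another gene, against none for B2M and NLRC5. The share was 33.9% for TAP2. AL669918.1, a gene on the same strand listed at 0.196 to 0.237 FPKM, shares 2064 of the 6390 exon bases of TAP2. How many of the shared stretches lie in that gene was not counted. The annotated span of HLA-B overlaps that of HLA-C on the same strand. Of the 89 stretches of HLA-B found in another gene, 81 occurred in HLA-C, and their part in the values of both was not tested. Genes on the opposite strand overlap exons of HLA-B, HLA-F and TAP1, and the sources used here do not say whether counting used strand.

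All of the genes were measured in both lines, and their levels per length spanned a wide range. HLA-C was the highest of the 9 in every library, with 155 FPKM in RKO OE, 157 in RKO WT, 98.4 in HCT116 OE and 91.7 in HCT116 WT. HLA-E, HLA-B and B2M made up the next tier, between 30.2 and 70.4 FPKM, and TAP1, TAP2 and TAPBP a lower tier between 12.0 and 21.1 FPKM. HLA-F followed at 3.46 to 5.35 FPKM and NLRC5 was lowest everywhere, at 1.24 FPKM in RKO OE, 1.13 in RKO WT, 0.447 in HCT116 OE and 0.516 in HCT116 WT. The order of the second tier was HLA-E, B2M, HLA-B in RKO OE, with intervals that did not overlap. In RKO WT the intervals of B2M, HLA-B and HLA-E overlapped their neighbours in the order, at 57.2, 56.2 and 54.4 FPKM. Both HCT116 libraries had the order HLA-E, HLA-B, B2M without overlap. Neighbours in the lower tier overlapped in both HCT116 libraries, and in RKO OE only TAP1 and TAPBP did.

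**Figure D1:**
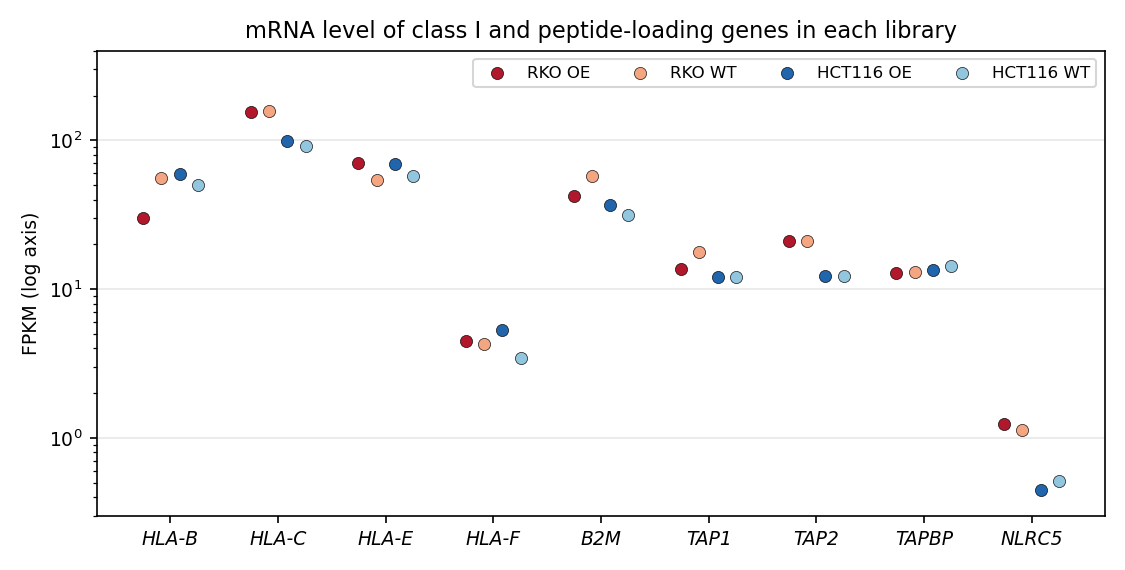
FPKM of the 9 genes on a log axis, with 1 point per library (RKO OE, RKO WT, HCT116 OE, HCT116 WT from left to right within a gene). HLA-C is highest in each library, and HLA-B in RKO OE, at 30.2 FPKM, lies below the other 3 libraries at 50.0 to 59.5 FPKM.

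AVEN overexpression was compared with wildtype AVEN within each line. In RKO, HLA-B was lower in the OE library by 1.86-fold, B2M by 1.34-fold and TAP1 by 1.31-fold, while HLA-E was 1.29-fold higher. In HCT116, HLA-F was 1.55-fold higher in the OE library and HLA-E 1.20-fold higher, and HLA-B and B2M also lay above WT. HLA-C, TAP2 and TAPBP lay at most 1.07-fold from WT in both lines in the values as deposited.

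A gene was counted when its log2((OE + 1)/(WT + 1)) was 0.32 or more in size. The added 1 makes this stricter for genes of low level. Genes whose OE and WT libraries averaged under 1 FPKM were left out. In RKO, 3 of 9 genes were lower in OE by this measure (HLA-B, B2M and TAP1), where 27.0% of the 11007 genes measured were. HLA-E was the 1 gene of 9 that was higher, where 13.4% of all genes were. In HCT116, 1 of 8 genes was higher in OE (HLA-F), where 10.5% of 11333 genes were, and 0 of 8 were lower, where 9.35% were. NLRC5 fell short of the mean in HCT116. None of the genes reached a 2-fold difference, which 1.30% of all genes did as higher and 1.95% as lower in RKO, and 1.02% in each direction in HCT116. None passed 0.32 in the same direction in both lines, which 1.12% of 11525 genes did as higher and 1.84% as lower. The median difference of the members was -0.01 on the log2 scale in RKO, against -0.09 over all genes, and 0.16 in HCT116, against 0.01 over all genes. The RKO counts lie near the background shares.

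**Figure D2:**
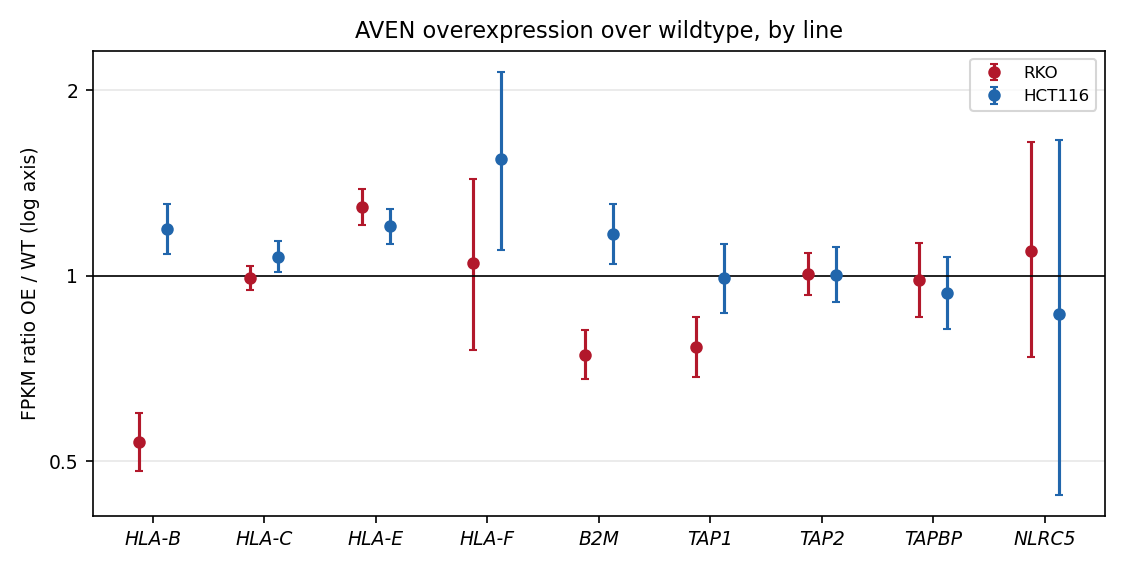
Ratio of FPKM in the OE library over the WT library, on a log axis, for RKO and HCT116, with exact 95% counting intervals as bars. HLA-B, B2M and TAP1 lie below 1 in RKO with intervals that leave out 1, and HLA-B and B2M lie above 1 in HCT116.

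HLA-B, a classical chain that presents peptides to cytotoxic T cells, had the largest difference of the 9. It measured 30.2 FPKM in RKO OE against 56.2 in RKO WT, from about 501 and 972 fragments. The RKO OE library was the low one of the 4, and the OE over WT ratio was 0.537 with an interval of 0.481 to 0.599. On the log2 scale the difference was -0.88, and 2.58% of the genes measured in RKO were as low or lower. In HCT116 the same gene measured 59.5 FPKM in OE against 50.0 in WT, a ratio of 1.19 with an interval of 1.08 to 1.31, so the lines differed in direction. That difference between lines was not tested, since each line has 1 library per group.

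HLA-C, a classical chain and the main ligand of inhibitory killer-cell receptors, did not follow HLA-B in the values as deposited. Its ratio in RKO was 0.991 with an interval of 0.947 to 1.04, and in HCT116 1.07 with an interval of 1.01 to 1.14. HLA-B thus amounted to 0.194 of HLA-C in RKO OE, against 0.358 in RKO WT, and to 0.605 in HCT116 OE, against 0.545 in HCT116 WT. Added together, the FPKM of both genes came to 186 in RKO OE against 213 in RKO WT, and to 158 in HCT116 OE against 142 in HCT116 WT. The log2 difference of that sum was -0.20 in RKO and 0.16 in HCT116. Once GC content and length were corrected for, HLA-C lay lower in RKO OE too, at -0.26, against -1.14 for HLA-B.

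HLA-E presents leader peptides of other class I chains to a receptor of natural killer cells. Both lines had more of it in OE, at 70.4 FPKM in RKO OE against 54.4 in RKO WT and at 69.5 FPKM in HCT116 OE against 57.8 in HCT116 WT. The OE over WT ratios were 1.29 with an interval of 1.21 to 1.38 in RKO and 1.20 with an interval of 1.12 to 1.29 in HCT116. The OE libraries of both lines thus stood above both WT libraries.

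HLA-F, a chain that can reach the surface without peptide, measured 4.46 FPKM in RKO OE against 4.26 in RKO WT, with an interval of the ratio from 0.756 to 1.44. In HCT116 it measured 5.35 FPKM in OE against 3.46 in WT, from about 102 and 60 fragments, with a ratio interval of 1.10 to 2.14. There 4.46% of genes were as high or higher. Its exons overlap 3 genes of the opposite strand, of which RPL23AP1 stood at 1.89 FPKM in HCT116 OE and 0.720 in HCT116 WT, and their part in the HLA-F value was not tested.

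The 4 heavy chain genes summed to 260 FPKM in RKO OE, 272 in RKO WT, 233 in HCT116 OE and 203 in HCT116 WT. Within that sum the share of HLA-B was 11.6% in RKO OE and 20.7% in RKO WT, whereas it was 25.6% in HCT116 OE and 24.6% in HCT116 WT. HLA-E took 27.0% in RKO OE and 20.0% in RKO WT. The sum in RKO OE was 0.958 of that in RKO WT.

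**Figure D3:**
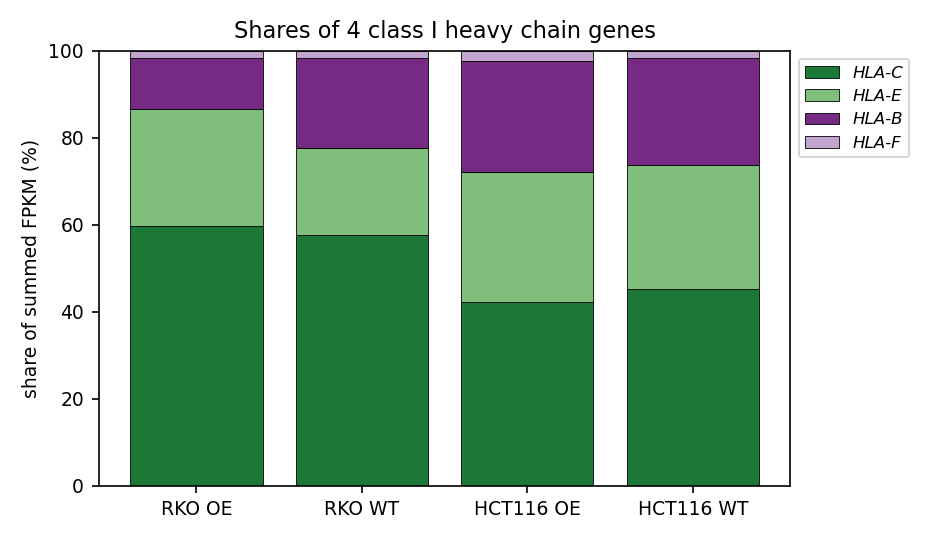
Share of each of 4 heavy chain genes in their summed FPKM, in percent, with 1 stacked bar per library. The HLA-B share is smallest in RKO OE, at 11.6%, and lies between 20.7% and 25.6% in the other 3 libraries.

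B2M encodes the light chain that every class I heavy chain needs to reach the surface. It measured 42.5 FPKM in RKO OE against 57.2 in RKO WT, a ratio of 0.744 with an interval of 0.680 to 0.815. In HCT116 it measured 36.7 FPKM in OE against 31.4 in WT, a ratio of 1.17 with an interval of 1.05 to 1.31. B2M and HLA-B were the 2 genes of the 9 whose intervals lay on opposite sides of 1 in the lines. The summed heavy chains came to 6.12 times B2M in RKO OE against 4.75 times in RKO WT, and to 6.34 times in HCT116 OE against 6.46 times in HCT116 WT.

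The transporter subunits differed from each other in RKO. TAP1 measured 13.6 FPKM in RKO OE against 17.8 in RKO WT, a ratio of 0.766 with an interval of 0.684 to 0.857, while TAP2 measured 21.1 FPKM in RKO OE against 20.9 in RKO WT. The TAP2 over TAP1 ratio was 1.55 in RKO OE and 1.18 in RKO WT, and 1.03 in HCT116 OE, close to that of HCT116 WT. In HCT116 neither subunit differed beyond counting error: TAP1 measured 12.0 FPKM in OE against 12.1 in WT, and TAP2 12.3 FPKM in each.

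TAPBP was the most even of the 9, with 12.9 FPKM in RKO OE, 13.1 in RKO WT, 13.5 in HCT116 OE and 14.3 in HCT116 WT. Its highest library was 1.11-fold above its lowest, and the OE over WT interval held 1 in both lines. NLRC5, the transactivator of class I genes, had about 54 and 51 estimated fragments in RKO OE and RKO WT. In HCT116 OE and HCT116 WT it had about 20 and 21. These take a mean transcript length of 2191 bases, where its listed transcripts run from 282 to 6822 bases. The ratio intervals of NLRC5 were 0.739 to 1.65 in RKO and 0.441 to 1.66 in HCT116. Differences within them cannot be told from counting error on these estimated fragments.

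In RKO the differences of all genes went with the GC content of their transcripts, with a Spearman rho of 0.535 across 10971 genes that share the same pair of libraries, against -0.11 across 11305 genes in HCT116. B2M is the GC-poor member, at 41.3%, and the other 8 lie between 53.1% and 62.1%, against a median of 50.4% over the genes measured in RKO. Once corrected for transcript GC content and length, the log2 difference in RKO was -1.14 for HLA-B, -0.46 for TAP1, -0.20 for B2M and 0.14 for HLA-E, so HLA-B and TAP1 alone passed 0.32. HLA-C then came to -0.26 and TAPBP to -0.24, from -0.01 and -0.02 as deposited. HLA-E also came under 0.32 with mitochondrial genes left out of the scaling, at 0.31, and after quantile normalization, at 0.24, and TAP1 came to -0.27 after centring. The shares of all genes also moved with scaling: as deposited, 1470 genes were higher and 2967 lower in RKO OE, whereas 2139 were higher and 2055 lower after centring on the median gene. Over the 5 scalings plotted, HLA-B ranged from -1.14 to -0.79.

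**Figure D4:**
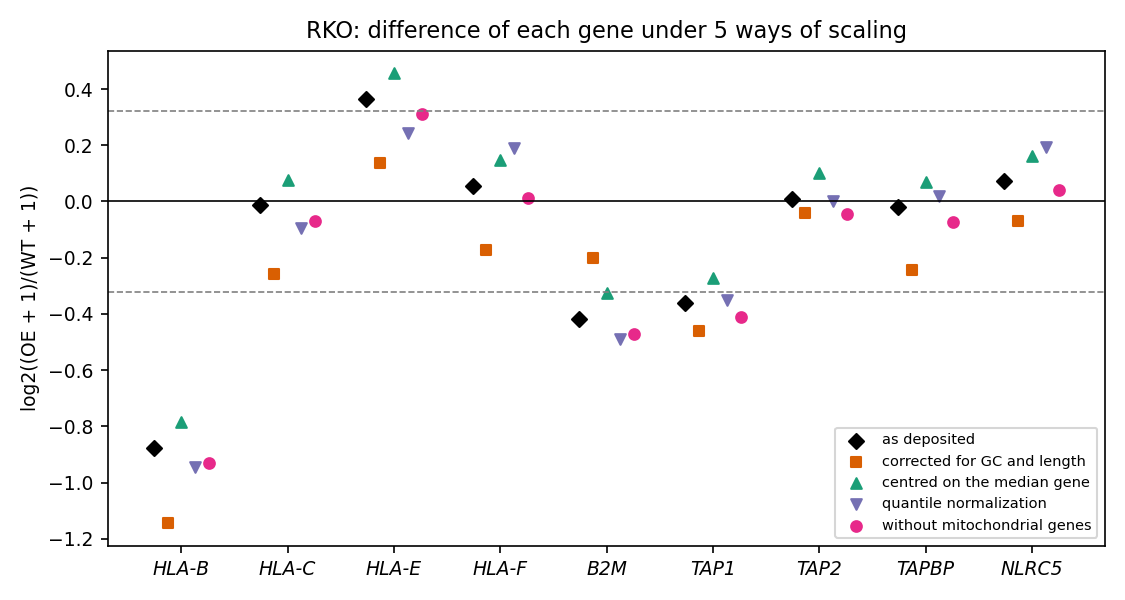
The log2((OE + 1)/(WT + 1)) difference of each gene in RKO under 5 scalings, with dashed lines at 0.32 above and below 0. HLA-B stays at -0.79 or lower under each, B2M comes to -0.20 after correction for GC content and length, and HLA-E ranges from 0.14 to 0.46.

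Across lines, a limma model of log2(FPKM + 1) on line and genotype covered 11525 genes, of which 14 passed an adjusted p of 0.05, or 0.121%. Here the lines act as the replicates of the overexpression, and since nothing states that libraries came from separate cultures, the p-values concern these samples only. Of the 8 members tested, 0 passed, and each had a Benjamini-Hochberg adjusted p of 1 (limma). An unadjusted p below 0.05 was found for 404 genes and for no member. HLA-E had the lowest unadjusted p of the members in limma, 0.173, with a log2 difference of 0.31 and a standard error of 0.22, and was higher in both lines. HLA-B had a difference of -0.31 with a standard error of 0.27, from lines that went opposite ways. In the authors' deposited table, p-values of the 9 genes ranged from 0.242 for HLA-B in RKO to 0.973 for TAP2 in HCT116, and every q-value was 1.

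Genes that work beside the class I pathway were read from fixed lists, each counted at 0.32 on the log2 scale as above. In the endoplasmic reticulum, 7 of 10 loading and folding genes were lower in RKO OE, against 27.0% of all genes, and 0 were higher. Their median log2 difference was -0.43, against -0.09 over all genes. Correction for GC content and length left 6 lower genes, and centring gave 5 lower and 1 higher. CANX, the chaperone that receives new heavy chains, measured 73.9 FPKM in RKO OE against 111 in RKO WT. UGGT1, which sends incompletely loaded class I molecules back for another round, measured 4.48 FPKM in RKO OE against 7.02 in RKO WT. CALR, the chaperone of the loading complex itself, measured 492 FPKM in RKO OE against 615 in RKO WT. PDIA3, HSPA5, ERAP1 and ERAP2 were the other 4 lower genes, named after their values were seen. GANAB, a glucosidase subunit, went the other way at 125 FPKM in RKO OE against 105 in RKO WT, short of that threshold as deposited. In HCT116, 0 of 7 such genes passed in either direction, with a median of -0.00. A pseudocount of 0.1 or 0.01, scaling without mitochondrial genes and quantile normalization each gave 1 higher gene there. UGGT1 measured 7.41 FPKM in HCT116 OE against 5.79 in HCT116 WT, and CANX 98.9 FPKM in HCT116 OE against 82.1 in HCT116 WT.

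The immunoproteasome, which replaces catalytic subunits of the standard proteasome, and its activator showed no difference past 0.32 in RKO in 5 genes. PSMB10 was the 1 gene of 4 that was lower in HCT116, where 9.35% of all genes were, at 3.45 FPKM in OE against 5.01 in WT. In HCT116, 1 of the 4 was also higher with a pseudocount of 0.1 or 0.01. Among the standard counterparts, PSMB5 and PSMB6 were higher in RKO OE (2 of 3 genes, against 13.4% of all genes), with PSMB6 at 94.0 FPKM in RKO OE against 69.3 in RKO WT, and 0 of 3 passed once GC content and length were corrected for. In HCT116 PSMB6 was lower instead, 1 of 3 genes against 9.35% of all genes, at 71.7 FPKM in OE against 96.8 in WT.

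Of 22 measured genes of interferon signalling and class I transcription, 5 were lower and 0 higher in RKO OE, against background shares of 27.0% and 13.4%, and the lower count was 3 with centring and 7 with the GC content and length correction. IFNAR1, a subunit of the type I interferon receptor, measured 2.62 FPKM in RKO OE against 7.63 in RKO WT, a log2 difference of -1.25. IFNGR1, the ligand-binding chain of the interferon gamma receptor, measured 2.33 FPKM in RKO OE against 3.83 in RKO WT. In HCT116, 3 of 25 genes were higher and 1 was lower, against 10.5% and 9.35% of all genes, and 1 was higher with the GC content and length correction. NFYA, a subunit of the factor that binds the Y box, measured 10.8 FPKM in HCT116 OE against 8.16 in HCT116 WT. IRF1, a direct activator of class I genes, was the lower one, at 1.26 FPKM in HCT116 OE, from about 41 fragments, against 2.35 in HCT116 WT.

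Interferon-stimulated genes outside the pathway were 2 higher and 1 lower of 8 in RKO OE, against 13.4% and 27.0% of all genes. In HCT116 OE, 3 were higher and 1 lower of 7, against 10.5% and 9.35%. IFI6 and IFITM1 passed 0.32 as higher in both lines, as 1.12% of all genes did, with IFI6 at 7.76 FPKM in RKO OE against 5.18 in RKO WT and at 8.40 in HCT116 OE against 5.71 in HCT116 WT. With GC content and length corrected for, 0 of the 8 genes were higher in RKO OE. BST2, which tethers budding viruses, was lower in RKO OE, at 287 FPKM against 370 in RKO WT. It was higher in HCT116 OE, at 1.97 FPKM, from only about 25 fragments, against 1.02 in HCT116 WT.

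Class I-like genes and genes that remove or repress class I were also counted. ULBP2 and ULBP3, ligands of the killer-cell receptor NKG2D, were the 2 of 7 class I-like genes lower in RKO OE as deposited. That share lay near the 27.0% of all genes, with ULBP2 at 11.3 FPKM in RKO OE against 17.4 in RKO WT. The lower count was 3 of 7 without mitochondrial genes in the scaling, after quantile normalization and with the GC content and length correction. In HCT116, 0 of 8 passed in either direction, and MICA, a further NKG2D ligand, measured 11.6 FPKM in OE against 14.3 in WT. Among genes that remove or repress class I, 1 was higher and 3 lower of 9 in RKO OE, near the 13.4% and 27.0% of all genes. In HCT116, 0 of 10 passed, but 2 were higher and 1 lower with a pseudocount of 0.1 or 0.01. In RKO OE, centring gave 2 higher and 1 lower, and the GC content and length correction gave 0 higher and 2 lower. The lower count there was 4 with a pseudocount of 0.1 or 0.01 or without mitochondrial genes, and 2 after quantile normalization. WWP2, a ubiquitin ligase, was the higher one as deposited, at 7.83 FPKM in RKO OE against 5.55 in RKO WT. SUZ12, a subunit of Polycomb repressive complex 2, measured 4.12 FPKM in RKO OE against 5.75 in RKO WT.

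Levels were then set side by side between lines, across separately deposited tables and with no test. HLA-C and TAP2 were higher in RKO by 0.32 or more in both genotypes, 2 of 8 genes where 23.2% of all genes were. In the other direction 0 of 8 passed in both genotypes, where 18.3% of all genes did. HLA-C stood 1.58-fold higher in RKO OE than in HCT116 OE and 1.71-fold higher in RKO WT than in HCT116 WT, and TAP2 1.71-fold in either genotype. B2M was 1.82-fold higher in RKO WT than in HCT116 WT, with an interval of 1.64 to 2.01, but 1.16-fold in the OE libraries. HLA-B in RKO OE was 0.507 of its level in HCT116 OE, with an interval of 0.455 to 0.565, and in RKO WT it was 1.12 of its level in HCT116 WT. The alleles of the highly variable HLA-B and HLA-C in each line were not examined. Their part in the levels between lines was not tested. NLRC5 was 2.78-fold higher in RKO OE than in HCT116 OE (interval 1.67 to 5.01) and 2.19-fold in the WT libraries (interval 1.31 to 3.87). It averaged under 1 FPKM in both comparisons, so it was not among the 8 genes counted. Its estimated fragments were about 20 in HCT116 OE and 21 in HCT116 WT.

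Mitochondrial genes took 30.3% of summed FPKM in RKO OE, 32.8% in RKO WT, 45.6% in HCT116 OE and 44.7% in HCT116 WT, and the median of all genes was 0.14 higher on the log2 scale in RKO among WT libraries and 0.02 among OE libraries. With mitochondrial genes left out of the scaling, HLA-C was 1.35-fold and TAP2 1.47-fold higher in RKO among OE libraries, and both were 1.56-fold higher among WT libraries. B2M then stood at 0.994 of HCT116 OE in RKO OE and TAP1 at 0.976, so the small excess of both in RKO OE turned round.

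**Figure D5:**
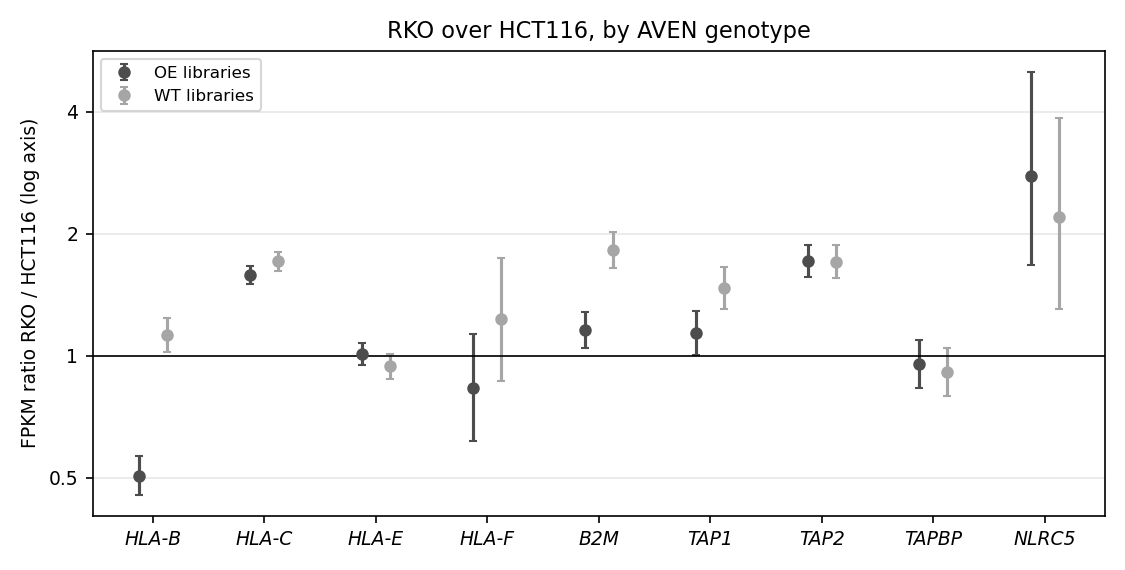
Ratio of FPKM in RKO over HCT116 on a log axis, within the OE libraries and within the WT libraries, with exact 95% counting intervals. HLA-C and TAP2 lie near 1.6 to 1.7 in both genotypes, while HLA-B lies at 0.507 among OE libraries and 1.12 among WT libraries.

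The immunoproteasome genes, which act before loading, were also set side by side between lines. PSMB8, a catalytic subunit of the immunoproteasome, measured 11.3 FPKM in RKO OE and 11.6 in RKO WT, against 0.159 in HCT116 OE, from about 4 fragments, and 0.273 in HCT116 WT. PSMB10 measured 10.3 FPKM in RKO OE and 10.1 in RKO WT, against 3.45 in HCT116 OE and 5.01 in HCT116 WT. Altogether 4 of 5 genes of that list were higher in RKO by 0.32 or more among OE libraries, where 32.7% of all genes were. Among WT libraries 4 of 5 were, where 37.5% of all genes were. PSMB8 passed the filter on low values only through RKO, so its direction was fixed in advance. Few class II genes could be set side by side: 3 of 12 passed the filter on low values among OE libraries and 2 among WT libraries. All of these were lower in RKO by 0.32 or more, but they passed the filter only through HCT116, so that direction was fixed in advance. The shares of all genes, 30.3% and 24.5%, are therefore no measure for them. HLA-DRA, a class II chain, measured 0.158 FPKM in RKO OE and 0.157 in RKO WT, against 6.25 in HCT116 OE and 3.83 in HCT116 WT. None of 12 class II genes reached a mean of 1 FPKM in RKO, and 3 did in HCT116. Of those 3, HLA-DRA was higher in OE as deposited, where 10.5% of all genes were, and 2 of the 3 were with a pseudocount of 0.1 or 0.01, without mitochondrial genes or with the GC content and length correction.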

How the data were processed

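Per the labels' protocols, poly(A) RNA was selected from total RNA and read from both ends. The authors deposited 1 table per line with an FPKM value per gene and library, and their own ratio, log2 ratio, p-value and q-value, per the file headers. Bowtie 0.12.2, HISAT2 2.0 and StringTie 1.3.0 are named in the submitters' processing notes, beside a mouse build, while the tables hold human identifiers, so the alignment build is unsettled. Of 60612 identifiers, 58394 were found in GENCODE 29 on GRCh38, which gave coordinates, lengths and GC content, the last for 99.7% of genes measured in RKO and 99.8% in HCT116.

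Differences were log2((OE + 1)/(WT + 1)), with a pseudocount of 1 that understates changes of low genes, where the libraries averaged 1 FPKM or more. Depth was estimated from the commonest value of FPKM times length among single-exon genes of at least 400 bases. Fragments of a gene then used the unweighted mean length of its listed transcripts, so fragment numbers and interval widths are approximate. A count of 0 allows 3 fragments, or 0.144 to 0.160 FPKM on 1 kilobase. The intervals take fragments as independent. The fit across lines used limma 3.58.1 in R 4.3.3, two-sided. Its trended prior had 12.0 median degrees of freedom, beside 1 residual degree of freedom. A simulation checked that estimates followed planted changes in size and direction. Those changes were larger than the difference of any member, so it does not show whether differences like theirs would be found. Other steps used Python 3.11.15 with pandas 2.3.3 and scipy 1.17.1.

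The members, the gene lists and the tests were chosen with earlier results of these data known. Named were each member, the 2 highest and 2 lowest differences per list and line, and genes past 0.32 in both lines, though some of these are not reported here. Further pseudocounts, scalings, filters and a fit without the line term were tried, and no columns were left unused.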

Additional observations from a re-analysis of the deposited data

Results flagged for a closer look

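HLA-B stood out because the lines went opposite ways, each beyond its own counting interval. The log2 difference of OE over WT was -0.88 in RKO, from about 501 and 972 fragments in OE and WT, and 0.25 in HCT116, from about 1039 and 786. The difference between lines was not tested, as each line has 1 library per group. B2M stood out in the same way, with a log2 difference of -0.42 in RKO and 0.22 in HCT116, and that difference between lines was not tested either. In RKO, B2M came to -0.20 after correction for GC content and length, and HLA-B to -1.14.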

How the results depend on the processing

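Of the 9 genes in RKO, 4 passed a log2 difference of 0.32 as deposited and 2 after correction for GC content and length (HLA-B and TAP1), and the median member difference was -0.20 in place of -0.01. In HCT116, 1 gene passed as deposited, 3 after quantile normalization and 2 after correction for GC content and length, each as higher in OE. No called difference changed direction under pseudocounts of 0.1 and 0.01, centring, scaling without mitochondrial genes, quantile normalization or the GC content and length correction. The replicate block was the line term, since each line pairs its OE and WT libraries: without it 0 genes of 11525 and 0 members passed in limma, against 14 genes and 0 members with it. The count of genes was 16 after centring, 14 without a trend, 7 with either smaller pseudocount or without mitochondrial genes, 3 at 5 FPKM or more, 1 after quantile normalization or the GC content and length correction, and 0 with no filter, and 0 members passed in each. Adjusted p of members in limma ranged from 0.9998 to 1 over these fits. Leaving out a line leaves the difference within the other, with no test: HLA-B was -0.88 without HCT116 and 0.25 without RKO. Summing rows of a name altered nothing, as each name had 1 row. NLRC5 had the fewest estimated fragments of the 9 genes, about 54 and 51 in RKO OE and RKO WT and 20 and 21 in HCT116 OE and HCT116 WT. These numbers depend on the transcript length taken. The added alternatives, chosen after seeing the data, were the sum of HLA-B and HLA-C, the scalings between lines and the list counts.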

Other observations

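Genes of the opposite strand that overlap exons of the members were read as values. HLA-F-AS1 measured 0.902 FPKM in RKO OE against 1.29 in RKO WT, and 0.564 in HCT116 OE against 0.489 in HCT116 WT. RPL23AP1, a ribosomal protein pseudogene within HLA-F, measured 0.345 FPKM in RKO OE against 1.45 in RKO WT, and 1.89 in HCT116 OE against 0.720 in HCT116 WT. PSMB8-AS1, which overlaps TAP1, measured 0.504 FPKM in RKO OE against 0.199 in RKO WT, and 0.236 in HCT116 OE against 0.0222 in HCT116 WT. The last value lies under the 0.160 FPKM that a count of 0 allows on 1 kilobase in HCT116 WT. AL671883.2, which overlaps HLA-B, was listed at the lowest value of the files in all 4 libraries.

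Profiles over the 4 libraries were compared by Euclidean distance on centred log2(FPKM + 1) values. Among 5505 protein-coding genes that averaged 5 FPKM or more, DDX3X, TMEM126B, ZFYVE19, TNFAIP1 and C8orf76 lay nearest to the mean profile of the 7 members at that level, at distances of 0.0430 to 0.0491. The members themselves lay farther from their own mean, from 0.174 for TAP1 to 0.819 for HLA-B, with 229 and 3995 of those genes nearer than TAP1 and HLA-B.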
